A study of Rattus norvegicus with 12 samples.

Results

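Tubulin and oligodendrocyte microtubule protein genes were examined in bulk RNA-seq libraries of cultured rat oligodendrocyte precursor cells (OPCs). The genes, like the other gene lists below, were chosen by name but with earlier results of these data known. They cover the alpha-tubulins *Tuba1a* and *Tuba1b*, the beta-tubulins *Tubb2a*, *Tubb2b*, *Tubb4a*, *Tubb5* and *Tubb6*, and the microtubule-binding proteins *Tppp*, *Mapt* and *Map1b*. Of these 10 genes, 9 were matched to the table of 30562 genes and all 9 were among the 8938 genes tested. *Tuba1b*, itself a major alpha-tubulin gene, was matched to no row by its symbol and was not analysed here. OPCs were isolated from the cortex of newborn wild-type (WT) Sprague-Dawley rats and were expanded in both groups in medium with FGF-2 and PDGF-AA. The mild-hypo-OPCs (n = 6 libraries) were kept at an FiO2 of 5%, and the standard OPCs (n = 6 libraries) were kept in room air. The labels give an exposure of 6 hours, whereas the methods of the study give 6 days for mild hypoxia, and 6 libraries per group were deposited where the study speaks of 3 biological replicates. Nothing in the labels ties a library to a separate culture, so the p-values below measure the spread between these libraries, which may in part be technical.

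Microtubules are hollow polymers of alpha- and beta-tubulin dimers, and each tubulin is encoded by several near-identical genes, the isotypes. An oligodendrocyte depends on them to extend its processes and to carry myelin mRNAs and vesicles into the sheath, and *Tubb4a* is the beta-tubulin for which mature oligodendrocytes are best known. TPPP promotes tubulin polymerization and nucleates microtubules at Golgi outposts in oligodendrocytes, tau (*Mapt*) and MAP1B bind and stabilise the polymer, and tau is also a partner of the kinase FYN in this lineage.

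The libraries differed in depth along with the condition. The smallest mild-hypo-OPC library held 4111669 counts and the largest 9022324, whereas the standard OPC libraries held between 1356079 and 2797513, so that depth and condition cannot be told apart for any value. Levels are therefore given as CPM, the count of a gene relative to the total of its library, scaled with TMM factors, which make the typical gene comparable between libraries. A gene was called higher or lower when edgeR's quasi-likelihood test, adjusted over all 8938 genes by the Benjamini-Hochberg method, gave a p under 0.05. The labelled cell type was checked on the lineage genes, and *Sox10* (554 against 472 CPM, mean of mild-hypo-OPCs against standard OPCs), *Olig2* (306 against 289 CPM), *Pdgfra* (236 against 229 CPM) and *Cspg4* (71.5 against 63.0 CPM) were present in both groups.

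Of the 9 genes, *Tubb4a* and *Tubb5* were higher in mild-hypo-OPCs and 0 were lower, while the abundant alpha-tubulin *Tuba1a* had nearly the same mean in both groups. Over all genes tested, 7.00% were called higher and 17.0% lower, 24.0% in all. At an unadjusted p under 0.05, edgeR counted 3 of the 9 genes as higher and 0 as lower, against 1200 and 2043 of all 8938. limma-voom and DESeq2 called 2 and 3 of the 9 higher and 0 lower. Over all genes they called 569 and 795 higher, and 1428 and 1520 lower. The median log2 fold change of the 9 genes was 0.14, against -0.003 over all genes tested. In *Tubb4a* and *Tubb5* all 6 mild-hypo-OPC libraries also lay above all 6 standard OPC libraries, a separation found in 2.94% of the genes tested, with 5.40% separated in the lower direction.

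**Figure D1:**
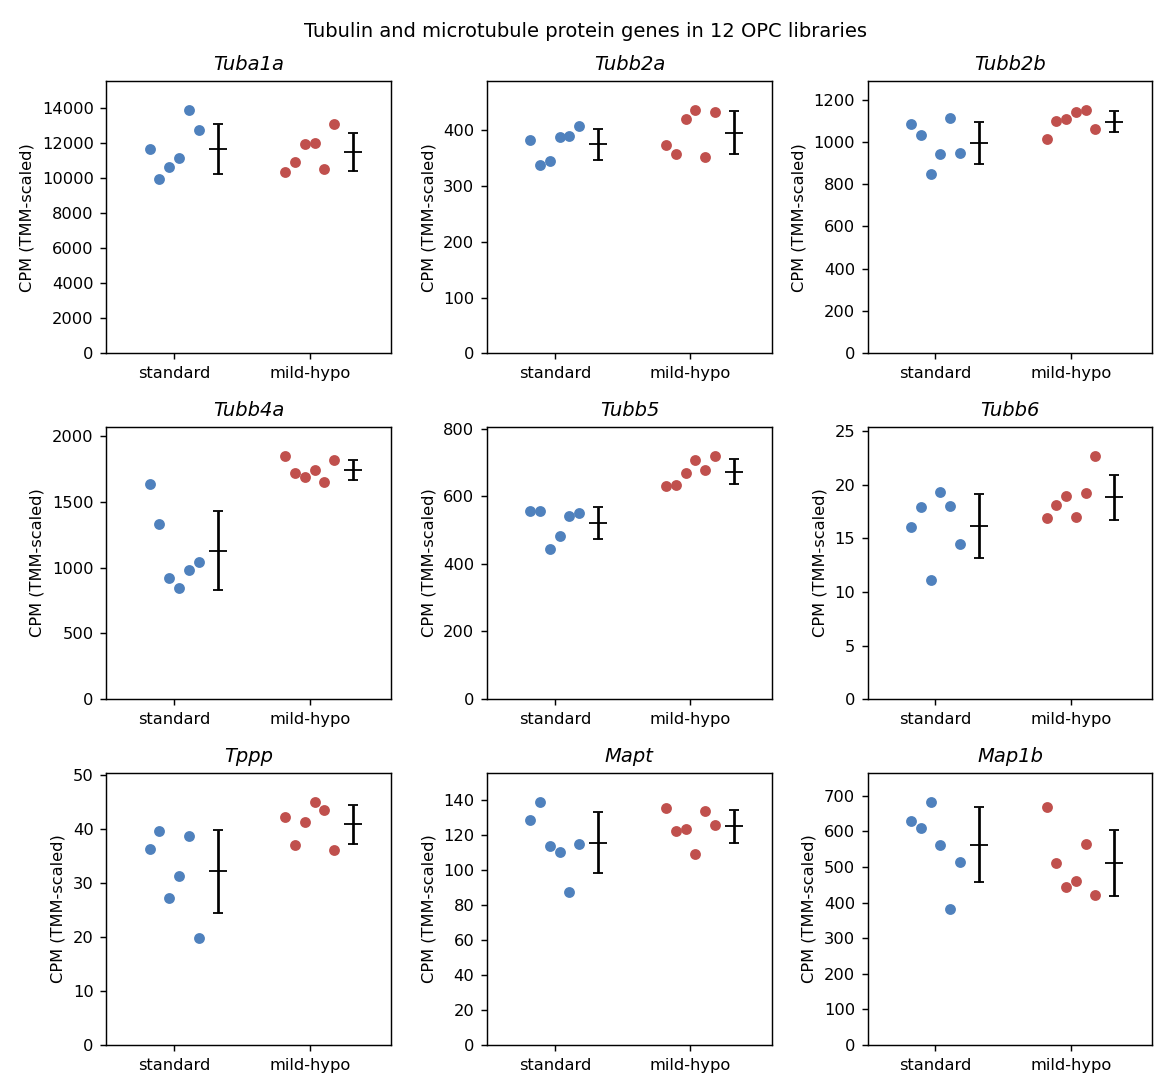
Each panel plots the TMM-scaled CPM of 1 gene (y axis, linear, from 0) in the 6 standard OPC and 6 mild-hypo-OPC libraries (x axis), with bars for the mean and SD. The 2 groups do not overlap for Tubb4a and Tubb5, and they overlap for the other 7 genes.

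The RefSeq start regions of the 3 beta-tubulins called higher, *Tubb4a* and *Tubb5* together with *Tubb3* from the list of other tubulins described below, are shown so that the core letters of the hypoxia response element, the motif bound by HIF, can be looked for in them. The letters ACGTG and GCGTG were searched on both strands in the 250 bases before each start site (GRCr8, a later build than the one used for the counts), and matches are in capitals. The window of *Tubb4a* is chr9:2012282-2012531 on the minus strand, that of *Tubb5* is chr20:2917327-2917576 on the plus strand and that of *Tubb3* is chr19:68365437-68365686 on the plus strand, each printed 5′ to 3′ in the direction of the gene.
Tubb4a: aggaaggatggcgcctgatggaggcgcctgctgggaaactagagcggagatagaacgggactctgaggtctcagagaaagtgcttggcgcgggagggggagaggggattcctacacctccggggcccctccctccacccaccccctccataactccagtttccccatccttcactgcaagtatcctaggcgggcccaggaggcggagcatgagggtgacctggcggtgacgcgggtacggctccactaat
Tubb5: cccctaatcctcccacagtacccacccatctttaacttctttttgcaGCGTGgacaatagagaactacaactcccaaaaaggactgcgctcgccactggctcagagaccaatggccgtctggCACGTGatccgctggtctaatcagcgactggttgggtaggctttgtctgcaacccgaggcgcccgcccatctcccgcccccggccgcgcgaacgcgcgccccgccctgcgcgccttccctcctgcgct
Tubb3: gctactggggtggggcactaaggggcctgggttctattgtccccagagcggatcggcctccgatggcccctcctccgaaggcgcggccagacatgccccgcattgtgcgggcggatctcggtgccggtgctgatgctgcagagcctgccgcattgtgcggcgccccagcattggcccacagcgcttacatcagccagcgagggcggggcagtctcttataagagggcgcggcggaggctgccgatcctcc
*Tubb5* held 3 matches, 1 of them 203 bases before the start and an overlapping pair, 1 on each strand of the palindrome CACGTG, 128 and 127 bases before it. *Tubb4a* and *Tubb3* held 0. Over the 9 genes with counts, 4 of the 8 with a window held a match, and 36.7% of all 33469 windows did. The letters G and C made up 56.8% to 73.2% of these 8 windows, against a median of 51.2% over all windows. Both motif cores contain CG, and the part of base composition in the matches was not tested. A match is a run of letters and not a binding site, and its absence here says only that these letters are not in this window. No window was given for *Mapt*, and that of *Tuba1b* was left out of this count.

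*Tuba1a* (ENSRNOG00000053468), the main alpha-tubulin of the developing brain, served as the reference for the alpha side of the dimer. It measured 10372 CPM in the lowest, 11461 in the median and 13111 in the highest mild-hypo-OPC library, and 9947, 11425 and 13879 CPM in the standard OPCs. The groups overlapped over almost their whole range. Its log2 fold change was -0.02 (SE 0.10, 95% interval -0.23 to 0.19), with an adjusted p of 0.902 in edgeR. *Tuba1a*, *Tuba1b* and *Tuba1c* are near-identical, so reads could be split among them by the counting. When the *Tuba1a* counts were added to those of both *Tuba1c* identifiers before the fit, the sum had a log2 fold change of -0.02 (SE 0.10, adjusted p = 0.907, edgeR).

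*Tubb4a* (ENSRNOG00000047505), the beta-tubulin of myelinating oligodendrocytes, was 1.54-fold higher in mild-hypo-OPCs. Its level was 1652 CPM in the lowest, 1732 in the median and 1851 in the highest mild-hypo-OPC library. In standard OPCs the same 3 values were 848.5, 1014 and 1640 CPM. The mild-hypo-OPCs were tightly grouped (1747 ± 77.1 CPM, SD, n = 6), whereas the standard OPCs were spread widely (1129 ± 300.3 CPM, SD, n = 6). Replicates 1 and 2 of the standard OPCs, at 1640 and 1334 CPM, stood above the other 4, which reached at most 1047 CPM. Replicate 1 of the standard OPCs came close to the lowest mild-hypo-OPC library. The log2 fold change was 0.63 (SE 0.13, 95% interval 0.36 to 0.89), with an adjusted p of 0.00155 in edgeR. It ranged from 0.56 to 0.76 when 1 library at a time was left out, and the call held in 12 of 12 such fits. With replicates 1 to 3 alone the log2 fold change was 0.45 (adjusted p = 0.144, edgeR), and with replicates 4 to 6 alone 0.87 (adjusted p = 3.13e-06). With the log2 total count of each library as a covariate it was 0.03 (adjusted p = 0.997, edgeR). After thinning of all libraries to the smallest total it was 0.71 (adjusted p = 0.000674, edgeR).

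*Tubb5* (ENSRNOG00000061216), a beta-tubulin made by most cells, dividing progenitors included, was 1.29-fold higher. Its lowest, median and highest mild-hypo-OPC libraries measured 629.3, 673.3 and 719.0 CPM, and those of the standard OPCs 442.7, 546.4 and 557.5 CPM. The gap between the groups was wide for this gene, and 4 of the 6 standard OPC libraries lay between 542.5 and 557.5 CPM. The log2 fold change was 0.37 (SE 0.08, 95% interval 0.20 to 0.53), with an adjusted p of 0.00231 in edgeR. It ranged from 0.32 to 0.42 over the 12 fits that left out a library, all past the threshold. The log2 fold change was 0.33 with replicates 1 to 3 alone (adjusted p = 0.130, edgeR) and 0.42 with replicates 4 to 6 alone (adjusted p = 0.00491). With the total count as a covariate it was 0.42 (adjusted p = 0.453, edgeR). After thinning of all libraries to the smallest total it was 0.39 (adjusted p = 0.0209, edgeR).

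The neighbouring paralogs *Tubb2a* and *Tubb2b*, beta-tubulins of neural progenitors and neurons, did not pass the test. Both passed it with library size as the only scaling and with only genes of at most 10 kb kept, as given below. *Tubb2a* (ENSRNOG00000017558) had 352.6, 397.3 and 436.0 CPM in the lowest, median and highest mild-hypo-OPC library and 336.9, 385.4 and 408.4 CPM in standard OPCs. *Tubb2b* (ENSRNOG00000017445) had 1015, 1103 and 1150 CPM in mild-hypo-OPCs and 847.5, 989.1 and 1112 CPM in standard OPCs. Both overlapped between the groups, although all 6 mild-hypo-OPC libraries were above the standard OPC median for *Tubb2b*. The log2 fold changes were 0.08 (SE 0.08, 95% interval -0.09 to 0.25) and 0.14 (SE 0.08, 95% interval -0.03 to 0.31), with adjusted p-values of 0.527 and 0.217 in edgeR. Summed, because reads of the pair may be split, they had a log2 fold change of 0.12 (SE 0.08, adjusted p = 0.258, edgeR).

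*Tubb6* (ENSRNOG00000018371), a divergent class V beta-tubulin, was read at low depth, with at most 162 counts in a mild-hypo-OPC library (lowest 83) and at most 42 in a standard OPC library (lowest 19). Its lowest, median and highest levels were 16.9, 18.5 and 22.7 CPM against 11.1, 17.0 and 19.3 CPM, and the groups overlapped. The log2 fold change of 0.23 (SE 0.14, 95% interval -0.06 to 0.51) missed the threshold (adjusted p = 0.242, edgeR). *Tubb6* passed it with library size as the only scaling and with only genes of at most 10 kb kept, as given below.

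Among the microtubule-binding proteins, none of *Tppp*, *Mapt* and *Map1b* was called. *Tppp* (ENSRNOG00000028261) came closest. It measured 36.1, 41.8 and 45.1 CPM in the lowest, median and highest mild-hypo-OPC library and 19.8, 33.8 and 39.6 CPM in standard OPCs, on 196 to 405 and 26 to 95 counts. All 6 mild-hypo-OPC libraries were above the standard OPC median and 4 were above its highest library. The log2 fold change was 0.32 (SE 0.13, 95% interval 0.06 to 0.59), with an adjusted p of 0.0667 in edgeR. With DESeq2 it was 0.34 (adjusted p = 0.0388). Without mild-hypo-OPC replicate 6 (adjusted p = 0.0389, edgeR) or standard OPC replicate 2 (adjusted p = 0.0341, edgeR) it also passed the threshold, as it did with upper-quartile factors (log2 fold change 0.39, adjusted p = 0.0282) and library size only, 5 of 24 alternatives in all. Over these alternatives its adjusted p ran from 9.7e-05 with library size as the only scaling to 0.949 with the log2 total count as a covariate.

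*Mapt* (ENSRNOG00000005133) had 109.2, 124.7 and 135.4 CPM in the lowest, median and highest mild-hypo-OPC library and 87.3, 114.0 and 138.9 CPM in standard OPCs. *Map1b* (ENSRNOG00000017428), a protein of growing processes, had 420.7, 485.6 and 667.9 CPM in mild-hypo-OPCs and 381.2, 585.4 and 682.9 CPM in standard OPCs. Both overlapped widely, and *Map1b* was the only microtubule-binding protein of the 3 with a lower mean in mild-hypo-OPCs. Their log2 fold changes were 0.11 (SE 0.10, 95% interval -0.09 to 0.31, adjusted p = 0.446, edgeR) and -0.14 (SE 0.13, 95% interval -0.41 to 0.13, adjusted p = 0.465, edgeR). *Fyn*, the tau partner, measured 761 ± 26.8 CPM in mild-hypo-OPCs and 723 ± 83.7 CPM in standard OPCs (SD, n = 6, adjusted p = 0.557, edgeR).

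The scaling sets the size of these differences. With library size as the only scaling, the log2 fold change of the median gene tested moved to 0.43, 5515 genes were called higher and 405 lower, and all 9 genes were called higher. Relative to that median, *Tubb4a* was 0.62, *Tubb5* 0.38, *Tppp* 0.33, *Tuba1a* -0.01 and *Map1b* -0.13 on the log2 scale. With upper-quartile factors the split of calls over all genes was 1136 higher and 1255 lower, against 626 and 1520 with TMM factors.

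**Figure D2:**
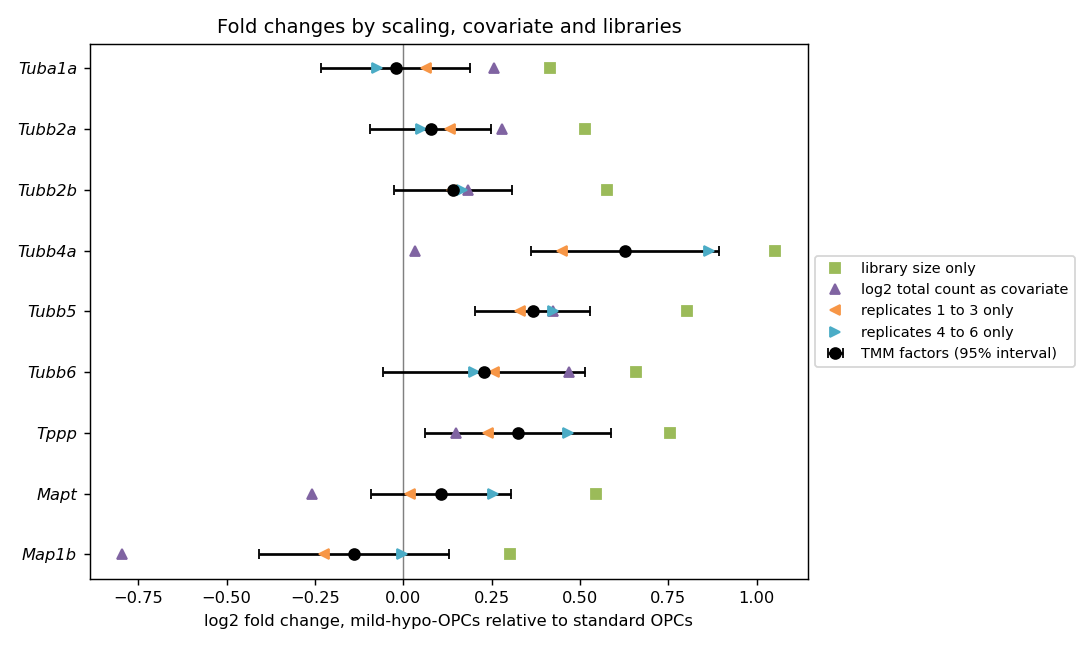
The x axis gives the log2 fold change of each gene (y axis), mild-hypo-OPCs relative to standard OPCs, with 95% intervals for the TMM-scaled values and separate symbols for other settings. Tubb4a (0.63) and Tubb5 (0.37) lie to the right of 0 with TMM factors, and with the total count as a covariate Tubb4a is at 0.03 and Tubb5 at 0.42, neither called.

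The composition of the beta-tubulin counts does not depend on any scaling between libraries, and it was compared next. Each isotype was expressed as a percentage of the counts of 7 beta-tubulin genes in the same library, without correction for transcript length, so that a share is one of counts and not of molecules. *Tubb4a* held 39.8% ± 1.84 (SD, n = 6) of the beta-tubulin counts in mild-hypo-OPCs and 32.35% ± 4.87 in standard OPCs, a difference of 7.40 percentage points (two-sided exact permutation p = 0.0108). The mild-hypo-OPC libraries ran from 38.3% to 43.1% and the standard OPC libraries from 27.8% to 40.0%. Replicate 1 of the standard OPCs, at 40.0%, was the 1 standard OPC library inside the range of the mild-hypo-OPCs, and replicate 2 followed at 36.4%.

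The shares of *Tubb2b* and *Tubb2a* were smaller in mild-hypo-OPCs. *Tubb2b* held 24.95% ± 1.32 against 28.9% ± 2.04, a difference of -3.97 percentage points (exact permutation p = 0.00433), and *Tubb2a* held 8.98% ± 0.633 against 11.0% ± 1.43, a difference of -2.01 percentage points (exact permutation p = 0.0217). The ranges overlapped slightly for both genes, between 23.2% and 26.8% against 26.4% and 31.9% for *Tubb2b* and between 8.22% and 9.59% against 9.21% and 12.7% for *Tubb2a*. *Tubb5* held 15.3% ± 0.475 against 15.2% ± 0.883 (exact permutation p = 0.807), and *Tubb6* held 0.428% against 0.472% (exact permutation p = 0.364). The shares of *Tubb4b* and *Tubb3* were not tested. *Tubb4b* held 8.35% ± 0.635 against 10.4% ± 1.43, a difference of -2.02 percentage points. *Tubb3* held 2.25% ± 0.126 against 1.72% ± 0.189, with no overlap between the groups. The shares of the 7 beta-tubulins sum to a fixed total, so they are not independent of each other. The p-values were not adjusted over the 6 shares tested, and 3 libraries against 3 could not give a p below 0.1.

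Within the counts of the alpha-tubulin genes analysed, *Tuba1a*, *Tuba4a* and both *Tuba1c* identifiers, but not *Tuba1b*, *Tuba1a* made up 99.75% in mild-hypo-OPCs and 99.81% in standard OPCs (difference -0.067 percentage points, exact permutation p = 0.0520, the sixth share tested). With *Tuba1b* missing from the total, this is not the share of *Tuba1a* in all alpha-tubulin. Without standard OPC replicate 1 (exact permutation p = 0.0260) or replicate 6 (exact permutation p = 0.0217) this difference passed 0.05. Beta-tubulin genes together took between 0.456% and 0.540% of all counts of a mild-hypo-OPC library and between 0.239% and 0.383% of those of a standard OPC library, with no overlap between the groups on the scale of the raw share of each library. The alpha-tubulin genes analysed took 1.10% to 1.51% and 0.822% to 1.25%, a partial sum without *Tuba1b*. On this unscaled measure, that of library size only, the median gene tested itself had a log2 fold change of 0.43. With TMM factors *Tuba1a*, which made up nearly all of the alpha sum, was at -0.02.

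**Figure D3:**
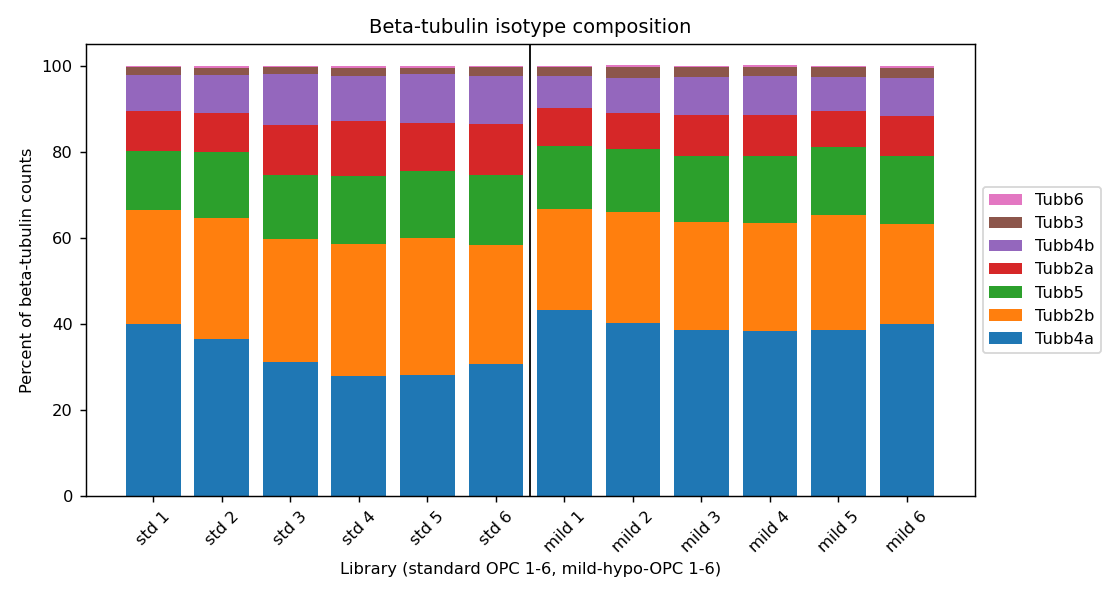
Stacked bars give the percentage of beta-tubulin counts (y axis, from 0) held by each isotype in each of the 6 standard OPC and 6 mild-hypo-OPC libraries (x axis). The Tubb4a segment takes 38.3% to 43.1% of a mild-hypo-OPC bar and 27.8% to 40.0% of a standard OPC bar, replicate 1 being the highest of these.

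The other tubulins were few in these cells. Of 13 listed, 4 passed the filter on low counts, and 1 was called higher and 0 lower, against 7.00% and 17.0% over all genes. *Tubb3* (ENSRNOG00000017209), the class III beta-tubulin used as a neuronal marker, was 1.65-fold higher. It measured 92.5, 96.9 and 110.4 CPM in the lowest, median and highest mild-hypo-OPC library and 50.6, 55.1 and 77.6 CPM in standard OPCs, with no overlap (log2 fold change 0.72, SE 0.10, adjusted p = 0.000181, edgeR). With the log2 total count as a covariate its log2 fold change was 0.63 (adjusted p = 0.293, edgeR). *Tubb4b* (368 ± 37.0 against 354 ± 30.5 CPM, SD, n = 6) and *Tuba1c* (19.4 ± 1.21 against 12.6 ± 6.72 CPM) were not called, with adjusted p-values of 0.674 and 0.0507 in edgeR. *Tuba4a* did not reach the filter, its highest count being 55 in the mild-hypo-OPCs (lowest 21) and 13 in the standard OPCs (lowest 2).

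Because *Tubb3*, *Mapt* and *Map1b* are abundant in neurons, markers of neurons were read beside them. The neuron list, which itself holds *Tubb3*, had 11 of 18 genes tested, 2 called higher (*Tubb3*, and *Syn1* at 43.1 against 32.7 CPM) and 1 lower (*Gap43*, log2 fold change -0.43, adjusted p = 0.00204, edgeR), against 7.00% and 17.0% over all genes. Its summed level was 468.1 CPM in the median mild-hypo-OPC library (455.2 to 503.7) and 445.3 CPM in the median standard OPC library (407.2 to 473.0), with *Gap43* its most abundant gene (112 against 152 CPM). Without *Tubb3*, a sum taken after the data were seen, the order of the medians turned to 368.4 CPM (344.8 to 411.2) in mild-hypo-OPCs and 388.2 CPM (348.6 to 421.5) in standard OPCs, and the groups overlapped. Of the 11 tested, 9 had a positive log2 fold change (median 0.29), and the neurofilament genes *Nefl* (0.69, adjusted p = 0.0535, edgeR) and *Nefm* (0.68, adjusted p = 0.0519) came near the threshold. Among the neuron markers below the filter, *Slc17a7* was at 0 in 11 of the 12 libraries, *Rbfox3* measured 2.67 against 3.36 CPM and *Dlx2* 6.24 against 3.73 CPM. Their part in the level of *Tubb3* was not tested.

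Genes of the oligodendrocyte lineage were read beside *Tubb4a*. Of 18 OPC and oligodendrocyte markers, 7 were called higher and 0 lower, 4 of them with no overlap between the groups, where 7.00% of all genes were called higher, 17.0% lower and 2.94% separated in the higher direction. The other 11 were not called, among them *Pdgfra* (log2 fold change 0.05), *Olig2* (0.08) and *Ptprz1* (-0.14). The median log2 fold change of the 18 was 0.21 and their summed level lay between 19140 and 20000 CPM in the mild-hypo-OPC libraries, all above the standard OPC libraries (14380 to 18760 CPM). *Mbp*, the most abundant of them, averaged 7132 against 5851 CPM (adjusted p = 0.0555, edgeR). *Cldn11* (log2 fold change 0.54, adjusted p = 0.00155), *Mag* (0.47, adjusted p = 0.00295) and *Gpr17*, a receptor of committed precursors (0.45, adjusted p = 0.000842), rose in the same edgeR fit. As for *Tubb4a*, the highest summed marker levels among the standard OPCs were those of replicates 1 and 2. Their part in the level of *Tubb4a* was not tested, and in bulk RNA a larger number of cells of a type and more RNA per cell cannot be told apart.

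The counts of the remaining marker lists stand against the same 7.00% higher and 17.0% lower over all genes. Of the 20 cell cycle genes tested, 6 were called higher and 0 lower. Higher were, among others, the replication helicase genes *Mcm5*, *Mcm6* and *Mcm2* (log2 fold changes 0.62, 0.65 and 0.57). The log2 fold change was positive in 14 of the 20 and negative in 6, including *Pcna* (63.75 against 68.45 CPM) and *Mki67* (19.96 against 23.11 CPM). The summed level of the list was 469.1 against 413.5 CPM in the median library of each group, with *Pcna* the most abundant. Astrocyte markers (2 higher and 0 lower of 8 tested, *Aqp4* and *Slc1a3*, summed median 882.8 against 828.4 CPM, with *Gfap* the most abundant) and microglia markers (3 higher and 1 lower of 6 tested, summed median 79.6 against 58.95 CPM, with *Csf1r* the most abundant and *Cd68*, *C1qb* and *Csf1r* higher and *Tyrobp* lower) were also read, and their part in the tubulin values was not tested. Of 13 mesenchymal and endothelial markers, 1, *Tagln*, was tested and called higher, with a summed median of 30.4 against 22.8 CPM.

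Tubulin must be folded before it can polymerize, and the prefoldin genes and some of the tubulin cofactor genes were lower in mild-hypo-OPCs. Prefoldin hands nascent tubulin to the TRiC chaperonin, and the cofactors TBCA to TBCE then assemble the dimer. Of the 20 folding genes tested, 10 were called lower and 0 higher, where 17.0% of all genes were called lower, and their median log2 fold change was -0.28. All 5 prefoldin genes tested were lower, as were 4 of the 7 tubulin cofactor genes (with *Arl2*) and 1 of the 8 chaperonin genes, *Cct5* (log2 fold change -0.25, named after its value was seen). The chaperonin genes ranged from -0.25 to 0.12 and the cofactor genes from -0.96 to 0.25 on the log2 scale. *Pfdn1*, a prefoldin subunit, ranged up to 117.3 CPM in mild-hypo-OPCs (lowest 79.8) and no lower than 128.1 CPM in standard OPCs (highest 253.9), with no overlap, and fell by 1.06 on the log2 scale (SE 0.15, adjusted p = 0.000169, edgeR). *Tbca*, a cofactor that captures beta-tubulin, fell by 0.96 (SE 0.15, adjusted p = 0.000243, edgeR) from 82.0 ± 22.6 to 41.4 ± 5.60 CPM (SD, n = 6). *Pfdn4* fell by 0.90 (SE 0.14, adjusted p = 0.000283, edgeR).

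The 10 folding genes called lower had a median span of 9.64 kb, with *Pfdn1* and *Tbca* at 53 and 54.6 kb, and genes of short span as a class were lower. Span is the length of a gene in the genome, introns included, and not the length of its transcript. By RefSeq gene span, 42.2% of the 950 genes of at most 5 kb were called lower and 3.37% higher, with a median log2 fold change of -0.33, against 5.98% and 8.68% of the 2558 genes over 50 kb, with a median of 0.06. Among the beta-tubulins called higher, *Tubb5* spans 4.15 kb, *Tubb4a* 7.45 kb and *Tubb3* 9.06 kb, and their log2 fold changes stood above the median of genes in their span range (-0.33 for up to 5 kb and -0.14 for 5 to 10 kb). *Tuba1a* (4.7 kb), *Tubb2a* (3.87 kb) and *Tubb2b* (3.05 kb) are also short, whereas *Mapt* (97.5 kb) and *Map1b* (93 kb) are long. A setting chosen after the data were seen kept only genes of at most 10 kb and scaled them on themselves. There 6 of the listed genes were called higher, where 428 of all 2002 genes tested in this setting were called higher. These 6 were all the listed genes of that length. *Tuba1a* was among them (log2 fold change 0.23, adjusted p = 0.0396, edgeR), beside *Tubb4a* (0.85) and *Tubb5* (0.61). *Tubb2a* (0.32), *Tubb2b* (0.385, both adjusted p = 0.00303, edgeR) and *Tubb6* (0.46, adjusted p = 0.0084, edgeR) were the others. The part of gene span in the other values was not tested.

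**Figure D4:**
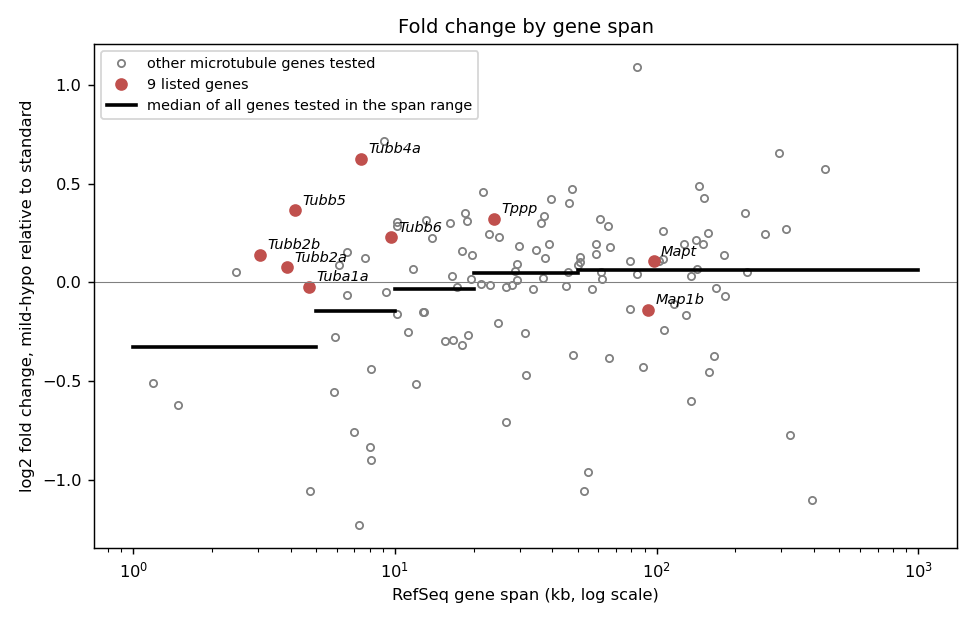
The x axis gives the RefSeq gene span in kb on a log scale and the y axis the log2 fold change, mild-hypo-OPCs relative to standard OPCs, for the listed genes (filled) and the other microtubule genes (open), with lines for the median of all genes tested in each span range. The line lies at -0.33 for genes of at most 5 kb and at 0.06 for genes over 50 kb, and Tubb4a, Tubb5 and Tubb3 lie above it.

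Of 14 tested genes of tubulin modification, 4 were called higher, 1 lower and 9 were not called, with a median log2 fold change of 0.11. Over all genes, 7.00% were called higher and 17.0% lower. *Hdac6* (log2 fold change 0.46, adjusted p = 0.0159) and *Atat1* (0.32, adjusted p = 0.0260), which remove and add the acetyl mark on alpha-tubulin, were both higher in edgeR, and *Sirt2*, the other tubulin deacetylase and an abundant oligodendrocyte protein, measured 1863 ± 65.6 against 1880 ± 116 CPM (SD, n = 6, adjusted p = 0.918, edgeR). *Agtpbp1*, a deglutamylase, was higher (0.43, adjusted p = 0.0252, edgeR). *Svbp*, the partner of the tyrosine carboxypeptidases, fell by 1.23 (adjusted p = 0.000405, edgeR) on no more than 45 counts in any library.

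Of 19 other microtubule-associated proteins tested, 5 were called higher and 2 lower (median log2 fold change 0.20), against 7.00% and 17.0% over all genes. *Dpysl5* (16.5 ± 1.58 against 7.56 ± 1.87 CPM, SD, n = 6) and *Crmp1* (90.1 ± 4.64 against 68.3 ± 9.73 CPM), both of the collapsin response mediator family, rose by 1.09 and 0.40 on the log2 scale (adjusted p = 0.00019 and 0.0038, edgeR). *Dclk1*, a doublecortin-like kinase, rose by 0.66 (adjusted p = 0.00126, edgeR), whereas doublecortin itself (*Dcx*) had a log2 fold change of 0.07 (adjusted p = 0.682). The giant spectraplakins, which link microtubules to actin, were lower. *Dst* measured 74.5 to 137.7 CPM against 178.2 to 324.2 CPM and fell by 1.10 (SE 0.17, adjusted p = 0.000223, edgeR), and *Macf1* fell by 0.78 (SE 0.15, adjusted p = 0.000957, edgeR). They span 394 and 325 kb and so were not among the short genes. *Map2* and *Map4* had log2 fold changes of 0.24 and 0.22 and were not called (adjusted p = 0.0603 and 0.136, edgeR). *Tppp3*, the short relative of *Tppp*, did not reach the filter, with a highest count of 27.

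At the ends and nucleation sites of microtubules, 2 of 24 genes tested were higher and 2 lower, where 7.00% of all genes were called higher and 17.0% lower, so neither count stands out from the background. The nucleation subunit *Tubgcp3* (log2 fold change 0.32, adjusted p = 0.0282) and the plus-end linker *Clip2* (0.29, adjusted p = 0.0409) were higher in edgeR, and the destabiliser *Stmn3* (-0.44, adjusted p = 0.0310) and the centrosome and Golgi scaffold *Akap9* (-0.60, adjusted p = 0.0420) were lower. *Stmn1* measured 142 ± 6.05 against 149 ± 13.1 CPM (SD, n = 6, adjusted p = 0.579, edgeR).

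Among the motors, 4 of 33 genes tested were higher and 7 lower, with a median log2 fold change of 0.04. Against 7.00% higher and 17.0% lower over all genes, these counts are near the background, and the genes below are given as single genes. Of the dynein light chains and dynactin subunits, *Dctn3* (-0.84, adjusted p = 0.000307), *Dynlt1* (-0.76, adjusted p = 0.000534) and *Dynlrb1* (-0.71, adjusted p = 0.000216) fell on the log2 scale in edgeR, whereas *Dynll2* (0.31, adjusted p = 0.0165) and the light intermediate chain *Dync1li2* (0.25, adjusted p = 0.0115) rose. The kinesin-2 motor *Kif3b* rose by 0.43 (adjusted p = 0.0111, edgeR).

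**Figure D5:**
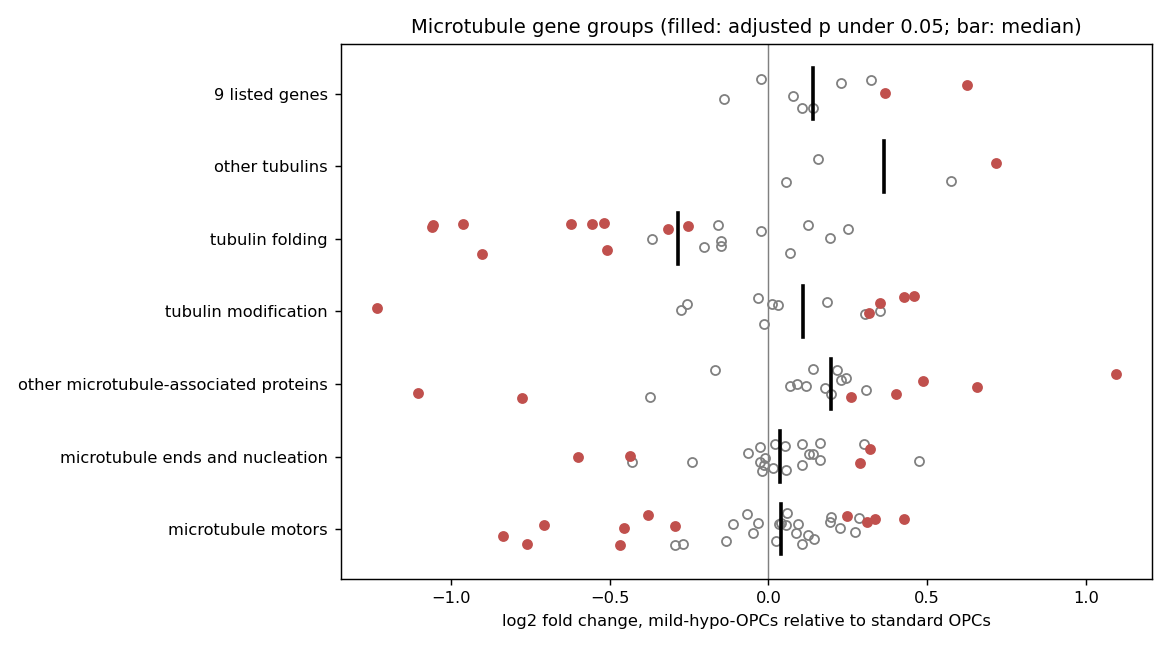
Each point is 1 tested gene of a microtubule gene group (y axis), placed by its log2 fold change, mild-hypo-OPCs relative to standard OPCs (x axis), filled where the adjusted p was under 0.05, with a bar at the group's median. The folding group has a median of -0.28 with 10 genes called lower and 0 higher, and the 9 listed genes have a median of 0.14 with 2 called higher.

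The listed genes also varied among libraries of the same group. After removal of the group means, log2 levels over the 12 libraries gave r = 0.82 between *Tuba1a* and *Tubb2a*, 0.58 between *Tubb4a* and *Tubb5*, 0.73 between *Mapt* and *Map1b*, and -0.88 between *Tuba1a* and *Map1b*. These are descriptions over libraries that share the TMM scaling and differ in depth. By the same measure the 3 tested genes most like *Tubb4a* were *Gtpbp1* (r = 0.962), *Sgk1* (0.960) and *Slc44a1* (0.957), those most like *Tubb5* were *Apeh* (0.960), *Rnf113a1* (0.927) and *Ckb* (0.920), and those most like *Tuba1a* were *Vmp1* (0.980), *Slc25a4* (0.955) and *Dnajc19* (0.944). For the microtubule-binding proteins they were *Adgra3* (0.961), *Lrrc41* (0.931) and *Mcoln1* (0.928) for *Tppp*, *Sart1* (0.968), ENSRNOG00000065683 (0.955) and *Cic* (0.943) for *Mapt*, and *Atrn* (0.968), *Zmiz1* (0.967) and *Ep300* (0.962) for *Map1b*. For *Tubb2a*, *Tubb2b* and *Tubb6* the single most similar genes were *Rhoa* (0.932), *Ercc3* (0.937) and *Scn2b* (0.935).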

How the data were processed

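Total RNA was converted to strand-specific libraries (Agilent SureSelect, 200 ng) and sequenced as 76 bp paired-end reads. Per the submitters' processing notes, the authors used FastQC 0.11.9, Trimmomatic 0.36, STAR 2.7.9a, RSEM 1.3.3 and mRatBN7.2. The deposited table gives raw counts as whole numbers, 1 column per library and 1 identifier per Ensembl gene, with 0 columns unused. RSEM divides reads shared by near-identical genes by an expectation-maximization estimate, so paralog sums were added.

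The filter on low values required a CPM over 10 in 1 library or more. In R 4.3.3, edgeR 4.0.16 (TMM, glmQLFit, glmQLFTest, condition as the only term) tested mild-hypo-OPCs against standard OPCs, with Benjamini-Hochberg adjustment over 8938 genes at 0.05. Standard errors and 95% intervals follow from the quasi-likelihood statistic. Where a symbol was repeated, the identifier with the highest total was kept. Shares of tubulin counts were compared with two-sided exact permutation tests in SciPy 1.17.1 (924 regroupings, smallest p 0.00216). Likeness was Pearson's r of log2 CPM (prior count 2). In simulated data for this comparison, with 8937 genes tested, edgeR recovered 71 of 99 genes changed by 0.5 and 99 of 101 changed by 1 on the log2 scale, with 12 false calls of 182. Apart from these changed genes, the simulated libraries shared a single composition. In the data 2146 genes were called, and the TMM factors did not overlap between the groups (1.076 to 1.233 against 0.809 to 0.945). The simulated rates may therefore not hold for the data. Libraries of a group differed by more than counting noise in all 15 pairs (chi-square per degree of freedom at least 3.39). Alternatives were limma-voom 3.58.1, DESeq2 1.42.0, other scalings and filters, subsets of libraries, thinning to the smallest total, the total count as a covariate and paralog sums. Spans and start regions came from RefSeq (GRCr8), matched by symbol, and none of their coordinates were joined to the counts.

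The members and gene lists were chosen with earlier results of these data known. Named genes are the listed members, up to 3 called genes of each list with the smallest p in each direction, a fixed set of microtubule genes (*Tubb3*, *Tubb4b*, *Tuba1c*, *Tuba4a*, *Map2*, *Map4*, *Tppp3*, *Dcx*, *Stmn1*, *Sirt2*, *Hdac6*, *Fyn*) and the 3 genes most like each member. Others, such as marker genes given for context, were chosen after their values were seen. Figures were drawn with matplotlib 3.10.9.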

Additional observations from a re-analysis of the deposited data

Results flagged for a closer look

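Among 46 sets of 6 values examined for a single library far from the others, 2 were found, and chance gives about 1 in 20. The total count of mild-hypo-OPC replicate 1 was 9022324, against 4111669 to 5474102 in the other mild-hypo-OPC libraries. The summed level of the mesenchymal and endothelial markers in mild-hypo-OPC replicate 6 was 44.6 CPM, against 28.9 to 33.0 CPM in the other libraries of that group. *Tubb4a* and *Tubb5* were called without either of these libraries.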

How the results depend on the processing

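*Tubb4a* and *Tubb5* were called higher in 23 of 25 alternatives. They were not called with replicates 1 to 3 only or with the log2 total count as a covariate, where 0 of the listed genes were called in edgeR (at an unadjusted p under 0.05, 2 were higher in the first, and 1 was higher and 1 lower in the second). Over all genes, 626 higher and 1520 lower became 53 and 343 with replicates 1 to 3 only and 0 and 43 with the covariate. At an unadjusted p under 0.05, 591 were higher and 1106 lower in the first setting, and 217 and 488 in the second. Higher and lower calls were 175 and 591 after thinning to the smallest total and 5515 and 405 with library size only. With upper-quartile factors 1136 genes were higher. limma-voom and DESeq2 called 569 and 795 genes higher. Leaving out 1 library gave 436 to 823 higher and 1165 to 1664 lower genes, and 2 to 3 higher and 0 to 0 lower of the listed genes. Genes with a span of 10 kb or less, 2002 tested, gave 428 higher and 466 lower, with 6 listed genes higher, and library size only gave 9 listed genes higher. The cause of these shifts was not tested.

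*Tuba1a* changed sign with upper-quartile factors (0.052), library size only (0.41), no filter beyond 1 count (0.014), replicates 1 to 3 (0.065), the covariate (0.26), thinning (0.017) and spans of 10 kb or less (0.23), and ran from -0.064 to 0.039 without 1 library. *Map1b* was 0.30 with library size only and -0.79 with the covariate (adjusted p = 0.143, edgeR), and *Mapt* -0.26 with the covariate. Without 1 library *Mapt* ran from 0.037 to 0.169, *Map1b* from -0.231 to -0.063, *Tubb2a* from 0.048 to 0.140 and *Tubb6* from 0.137 to 0.293. The *Tuba1* sum was 0.054 with upper-quartile factors, 0.42 with library size only and 0.26 with the covariate, and -0.063 to 0.040 without 1 library. The *Tubb2* sum was 0.56 with library size only and 0.09 to 0.18 without 1 library.

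With replicates 1 to 3 and with replicates 4 to 6, the share differences (percentage points) were 4.74 and 10.06 for *Tubb4a*, -2.89 and -5.06 for *Tubb2b*, and -1.17 and -2.85 for *Tubb2a*. For *Tubb5* the share was -0.121 with replicates 4 to 6, -0.169 over the listed beta-tubulins alone, and -0.199 to 0.301 without 1 library. Without 1 library the *Tuba1a* share ran from -0.0872 to -0.0545, *Tubb4a* from 6.49 to 8.93, *Tubb2b* from -4.47 to -3.38 and *Tubb2a* from -2.37 to -1.67.

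Same-numbered libraries did not deviate together (r from -0.276 to 0.296), so the numbers were not taken as pairs. With the replicate block, *Tubb4a* was 0.66 and *Tubb5* 0.37, 572 genes were higher and 1471 lower, and no listed gene changed its call. Depth limits the genes with few reads in the standard OPCs, such as *Tubb6* (19 to 42 counts) and *Tppp* (26 to 95 counts).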
